A study of Mus musculus with 6 samples.

Results

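The genes described here are the nuclear-encoded subunits of the mitochondrial respiratory chain and of ATP synthase, with a small set of assembly factors that carry the same symbols. They were taken by gene symbol: every gene measured by a probe set that the platform annotation ties to that gene alone, and whose symbol starts with Nduf, Sdha, Sdhb, Sdhc, Sdhd, Uqcr, Cox4i, Cox5, Cox6, Cox7, Cox8 or Atp5. This gave 94 of the 18193 genes measured, on 185 of the 45037 probe sets tested. Where a gene had several probe sets, the brightest by its mean across all 6 arrays stands for it; 41 genes had 1 probe set and 53 had several. The rule uses symbols and no measured value. Sorted by complex, 34 belong to complex I, 4 to complex II, 8 to complex III, 18 to complex IV (cytochrome c oxidase) and 17 to ATP synthase, and 13 are assembly or accessory factors.

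RNA came from mouse bone marrow cells depleted of lineage-positive cells and sorted as cKit+ and Sca1-, a fraction that the labels call myeloerythroid progenitors. One group, GFP-positive, carried fluorescence from a Hes1 reporter and the other, GFP-negative, did not; each group had 3 Affymetrix arrays. Both groups came from 6-week-old male mice of genotype Hes1 GFP/WT, so every sample carried 1 reporter allele and no sample was free of it. For each sample 5 ng of total RNA was amplified with a NuGEN Ovation kit before labelling. The labels do not say that arrays of a group came from separate animals, so the p-values below reflect variation among these samples alone, and that variation may be technical. Values are given as log2 of the deposited intensity, a log2 change is GFP-positive minus GFP-negative, and "rose" or "fell" is kept for changes with an adjusted p under 0.05 in the limma fit over all probe sets.

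The respiratory chain passes electrons from NADH (complex I) and succinate (complex II) through ubiquinone and complex III to cytochrome c and on to oxygen at complex IV, and complexes I, III and IV pump protons as they do so. ATP synthase uses the resulting gradient to make ATP. Most subunits are encoded in the nucleus and a small core in mitochondrial DNA, and several complex IV subunits exist as tissue-specific paralogs. In marrow, mitochondria also supply the red cell lineage with heme and iron-sulfur clusters, and stem cells are known for relying more on glycolysis than their progeny do.

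Hes1 itself averaged 7.15 ± 0.04 on GFP-positive arrays and 5.88 ± 0.14 on GFP-negative arrays (SD, n = 3 each), a log2 change of 1.27 ± 0.10 (SE; limma adjusted p = 0.00141). Kit averaged 11.17 on GFP-positive and 11.42 on GFP-negative arrays, with an adjusted p of 0.138. Array medians lay between 59.9 and 64.8 in linear intensity; precision is set by having only 3 arrays a group. Plasma cell signal set apart 1 array of each group: Jchain, the immunoglobulin joining chain, was 8.65 on GFP-positive array 1 and 8.85 on GFP-negative array 3, and between 3.64 and 4.08 on the other 4 arrays. The groups also differed in lineage markers. Of 7 erythroid markers, 6 rose, and their summed linear intensity was 25907 to 29425 on GFP-positive arrays and 14873 to 15529 on GFP-negative arrays. All 7 granulocyte and monocyte markers fell, with sums of 19401 to 24562 on GFP-positive arrays and 46078 to 48561 on GFP-negative arrays, and all 6 multipotent markers fell, with sums of 3242 to 3904 on GFP-positive arrays and 11148 to 12950 on GFP-negative arrays. Of 6 mast cell, basophil and eosinophil markers 4 fell, with sums of 1413 to 4148 on GFP-positive arrays and 7241 to 7776 on GFP-negative arrays. Of 5 megakaryocyte markers 1 rose, and 1 marker fell in each of the lists for B and plasma cells (of 5), T and natural killer cells (of 4) and stroma with endothelium (of 6). The part of these cell types in the results below was not tested. In bulk RNA of this kind, a different share of cells of a type and a different amount of transcript per cell cannot be told apart.

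Respiratory chain and ATP synthase genes differed little between the groups, and most of them were slightly higher in GFP-positive cells. Of the 94 genes, 87 had a log2 change above 0 and 7 below 0; 92.6% were above 0, against 64.6% of all genes. Their median log2 change was 0.16 (quartiles 0.09 and 0.29), against 0.11 for all 18193 genes. Past the threshold, 5 genes rose, 1 fell and 88 were not called. The risen share was 5.32%, against 8.15% of all genes that rose, and the fallen share was 1.06%, against 9.92% of all genes. Which of the risen shares was larger depended on the processing setting, as given in the last section. By probe set, 14 of 185 rose (7.57%), against 6.35% of all probe sets, and 2 fell, against 7.66%. All 6 genes called are described below: Ndufb9, Ndufs1, Cox6b2, Ndufaf1 and Sdhaf3 rose and Cox6a2 fell.

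The lack of overlap between the groups was more frequent than the calls. In 51 of the 94 genes (54.3%) each GFP-positive array lay above each GFP-negative array, against 28.9% of all genes, and 46 of these genes were not called. The reverse held for 4 genes, Cox6a2, Cox4i2, Ndufa4 and Cox7a2l, against 16.7% of all genes; 3 of the 4 were not called. Groups overlapped in the other 39 genes. An unadjusted p under 0.05 with a positive change was found for 23 genes (24.5%, against 22.0% of all genes), and with a negative change for 2 (2.13%, against 15.1%). Without both arrays that carried the immunoglobulin signal, no gene of the set was called as higher by limma on the other 4 arrays (8 were higher and 2 lower at an unadjusted p under 0.05, 8.51% and 2.13%, against 14.1% and 13.3% of all genes), Cox6a2 stayed called as lower at an adjusted p of 0.0264, and 80 of the 94 genes still had a change above 0. In that reduced fit the share of all genes that rose was 2.08%.

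**Figure D1:**
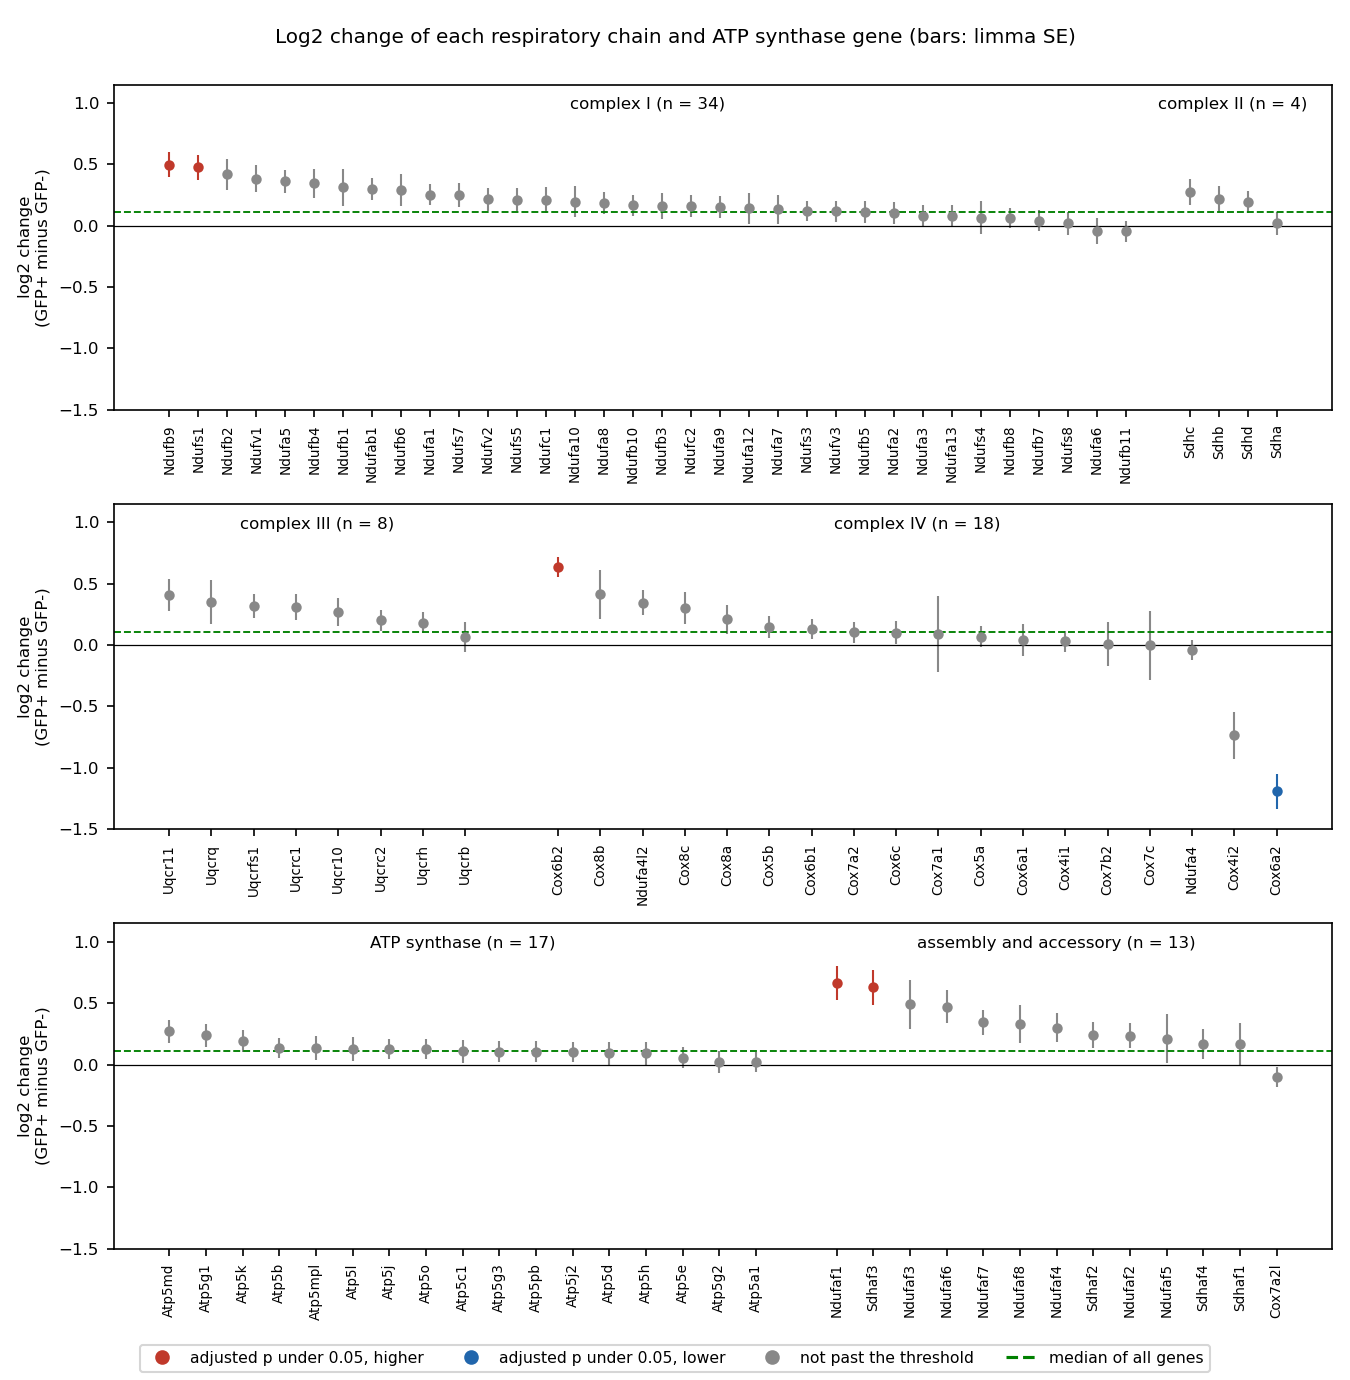
Log2 change (GFP-positive minus GFP-negative, 3 arrays each) of each of the 94 genes, ordered within each complex; points are limma estimates, bars their standard errors, the dashed line the median of all genes. Most points lie between 0 and 0.5, 5 genes are marked as higher, and Cox6a2 and Cox4i2 stand apart below 0.

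The upstream sequences of 4 genes are shown because they carry the contrasts described below: the assembly factors Ndufaf1 and Sdhaf3, which rose, and the paralogs Cox6b2, which rose, and Cox6b1, which was not called. Each is the 250 bases before the annotated start of the gene from RefSeq on GRCm38.p6, 5′ to 3′ on the gene's strand. They lie at chr2:119662835-119663084 (minus strand) for Ndufaf1, chr6:6955768-6956017 (plus strand) for Sdhaf3, chr7:4753095-4753344 (minus strand) for Cox6b2 and chr7:30626115-30626364 (minus strand) for Cox6b1. Capitals mark a match, on either strand, to CCGGAAG, the core of ETS family sites that GABP also binds; its reverse complement is CTTCCGG.
Ndufaf1: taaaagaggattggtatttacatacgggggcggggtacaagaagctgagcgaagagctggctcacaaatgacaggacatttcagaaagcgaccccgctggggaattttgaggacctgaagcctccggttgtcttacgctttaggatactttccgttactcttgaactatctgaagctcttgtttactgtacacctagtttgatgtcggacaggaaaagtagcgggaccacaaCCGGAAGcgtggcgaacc
Sdhaf3: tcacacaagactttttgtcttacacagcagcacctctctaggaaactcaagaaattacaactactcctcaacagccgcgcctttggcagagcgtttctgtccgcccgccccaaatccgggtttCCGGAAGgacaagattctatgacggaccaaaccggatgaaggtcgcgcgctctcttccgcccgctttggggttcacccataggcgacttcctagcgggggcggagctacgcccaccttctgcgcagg
Cox6b2: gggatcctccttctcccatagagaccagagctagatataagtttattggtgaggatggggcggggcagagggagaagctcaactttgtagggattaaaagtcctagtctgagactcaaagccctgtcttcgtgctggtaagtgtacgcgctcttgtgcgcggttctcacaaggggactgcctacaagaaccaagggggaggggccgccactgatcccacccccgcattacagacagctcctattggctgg
Cox6b1: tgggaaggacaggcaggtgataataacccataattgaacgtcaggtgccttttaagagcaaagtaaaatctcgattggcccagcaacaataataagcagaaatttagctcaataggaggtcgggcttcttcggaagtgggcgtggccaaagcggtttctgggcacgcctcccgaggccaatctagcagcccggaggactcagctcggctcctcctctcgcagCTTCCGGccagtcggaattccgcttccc
Ndufaf1, Sdhaf3 and Cox6b1 each hold 1 match to that core, and the Cox6b2 stretch holds none. It also holds no match to the other longer motifs searched, GCGCATGC (nuclear respiratory factor 1), AAGATGGC (YY1) and CAAGGTCA (oestrogen-related receptors), which says only that these letters are not in this stretch.

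Across the gene set, windows of 300 bases (250 before and 50 after the start) were available for 78 of the 94 genes and were searched on both strands for 6 motifs; motifs may overlap one another, and GCGCATGC overlaps its own reverse complement. The NF-Y box CCAAT was found in 33 of the 78 windows (42.3%), against 41.1% of 27025 genes with a window. The ETS core was found in 22 of the 78 windows (28.2%, against 9.93%). GCGCATGC was found in 11 (14.1%, against 3.05%), among them Sdhb, Uqcrc1 and Cox6a1. AAGATGGC was found in 10 (12.8%, against 3.19%) and CAAGGTCA in 4 (5.13%, against 1.76%) (Ndufs5, Sdhd, Atp5l and Atp5g3). The GATA factor site AGATAA was found in 6 (7.69%, against 12.7%). These matches are descriptions of the sequence, not evidence of binding. Ndufb9, Ndufs1 and Cox6a2 were among the 16 genes not matched to a window.

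Complex I, the NADH dehydrogenase, held 2 of the 5 genes that rose. Of its 34 genes, 2 rose (5.88%, against 8.15% of all genes) and none fell (against 9.92%). A change above 0 was found in 32, and the median was 0.16. Groups were separate with GFP-positive higher in 19 (55.9%, against 28.9% of all genes). Ndufb9, a supernumerary subunit of the membrane arm, had log2 intensities of 12.75, 12.54 and 12.55 on the GFP-positive arrays, against 12.19, 12.09 and 12.06 on the GFP-negative arrays. All 3 GFP-positive values lay above the highest GFP-negative value. The log2 change was 0.50 ± 0.10 (1.41-fold, adjusted p = 0.0249), and a second probe set of Ndufb9 rose by 0.46 (adjusted p = 0.0319). The call held with GFP-negative array 1 left out (0.0439) and was lost with any other 1 of the 6 arrays left out, at adjusted p between 0.0520 and 0.0918. Its dimmest probe set, with a mean log2 intensity of 4.06, did not follow (-0.03, adjusted p = 0.956). Whether that probe set lay above background is not known. The mean of all probe sets of Ndufb9 gave 0.31 (0.157). Among the nearest protein-coding genes in RefSeq order, Tatdn1 on one side changed by 0.67 (adjusted p = 0.0106) and Mtss1 on the other by 0.45 (adjusted p = 0.0429).

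The core subunits of complex I include those that carry its flavin and iron-sulfur clusters. Of the 6 core genes measured, 1 rose (16.7%, against 8.15% of all genes) and 5 had separate groups with GFP-positive higher (83.3%, against 28.9%). The median change was 0.23, against 0.16 in the 28 supernumerary genes. Ndufs1, the large iron-sulfur subunit of the module that takes electrons from NADH, had 11.79, 11.77 and 11.71 on the GFP-positive arrays, against 11.44, 11.20 and 11.20 on the GFP-negative arrays. Its GFP-positive values were close together and all higher than the GFP-negative ones. The log2 change was 0.47 ± 0.11 (1.39-fold, adjusted p = 0.0323), on the gene's only probe set. It was lost with the replicate number as a block (0.0582), and with any 1 array left out (0.0745 to 0.111) except GFP-negative array 1 (0.0254).

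The other core genes were not called. Ndufv1, the subunit that binds NADH and the flavin, had 12.42, 12.31 and 12.26 on the GFP-positive arrays, against 12.07, 11.99 and 11.78 on the GFP-negative arrays, with no overlap. Its log2 change was 0.38 ± 0.11 and its adjusted p 0.0722. Ndufs7, an iron-sulfur subunit next to the ubiquinone site, had a change of 0.25 (adjusted p = 0.138), Ndufv2, an iron-sulfur subunit beside Ndufv1, one of 0.21 (0.174), and Ndufs3 one of 0.12 (0.361). Groups did not overlap for any of these 3. Ndufs8, which carries a pair of iron-sulfur clusters, changed by 0.02 (adjusted p = 0.910), and its groups overlapped. A dimmer probe set of Ndufv2 gave a larger change, 0.46 (adjusted p = 0.0409), than the representative one.

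Among the supernumerary subunits the changes ran from -0.05 in Ndufb11 to 0.50 in Ndufb9. Those nearest the threshold, named after their values were seen, were Ndufa5 (0.36, adjusted p = 0.0560), Ndufab1 (0.30, 0.0766) and Ndufb2 (0.42, 0.0822). Ndufab1 is the mitochondrial acyl carrier protein, which also serves fatty acid synthesis. It had 12.29, 12.29 and 12.28 on the GFP-positive arrays, against 12.06, 12.02 and 11.89 on the GFP-negative arrays, and a second, dimmer probe set of it rose by 0.38 (adjusted p = 0.0445). Ndufa6 (-0.04) and Ndufb11 were the only complex I genes with a change below 0, and neither had separate groups. Probe sets that the annotation shares between several genes were left out of these counts: there were 10, of which 1 rose, one that cannot separate Ndufab1 from its pseudogene (0.42, adjusted p = 0.0453). Ndufs6 and Ndufa11 were measured only by such shared probe sets (0.28 and 0.20 on the brightest, adjusted p = 0.144 and 0.283).

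Complex II, succinate dehydrogenase, also a step of the citric acid cycle, had no gene past the threshold, and its lowest adjusted p was 0.136. Of its 4 genes, 1 had an unadjusted p under 0.05 with a positive change, as did 22.0% of all genes. Sdhc, a membrane anchor, had 11.41, 11.31 and 11.25 on the GFP-positive arrays, against 11.12, 11.12 and 10.91 on the GFP-negative arrays, a change of 0.27. Sdhb, the iron-sulfur subunit, changed by 0.22 (adjusted p = 0.205) and Sdhd, the other anchor, by 0.20 (0.190). Groups were separate with GFP-positive higher in these 3 of the 4 genes, against 28.9% of all genes. Sdha, the flavoprotein that oxidises succinate, had 12.18, 12.14 and 12.14 on the GFP-positive arrays, against 12.24, 12.11 and 12.05 on the GFP-negative arrays. The Sdha groups overlapped and the change was 0.02 (adjusted p = 0.908), but on another bright probe set of Sdha the groups were separate (0.11, adjusted p = 0.408). A second probe set of Sdhd rose by 0.38 (adjusted p = 0.0336), although the representative one was not called.

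Complex III, the cytochrome bc1 complex, had a median change of 0.29. Groups were separate with GFP-positive higher in 6 of its 8 genes, against 28.9% of all genes. No gene of complex III passed the threshold. Its lowest adjusted p was 0.0796 and 3 genes had an unadjusted p under 0.05. That lowest value belonged to Uqcrfs1, the Rieske iron-sulfur protein, which averaged 12.26 ± 0.08 on the GFP-positive arrays and 11.94 ± 0.09 on the GFP-negative arrays (SD, n = 3 each; the groups were separate; change 0.32 ± 0.10). Uqcr11, a small subunit named after its values were seen, had 12.39, 12.23 and 12.18 on the GFP-positive arrays, against 12.08, 11.78 and 11.72 on the GFP-negative arrays (0.41 ± 0.13, adjusted p = 0.0848). With GFP-negative array 1 left out, Uqcr11 passed the threshold (0.0448). Uqcrh, the hinge protein at the cytochrome c1 site, changed by 0.18 (adjusted p = 0.210) with separate groups. Uqcrb, a ubiquinone-binding subunit, changed by 0.07 (0.737) and its groups overlapped. Cyc1, the cytochrome c1 subunit of the same complex, lies outside the symbol rule: it rose by 0.50 ± 0.12 (adjusted p = 0.0450), a call that held without GFP-negative array 1 (0.0292) and was lost without any other 1 array (at most 0.127), with 11.69, 11.62 and 11.55 on the GFP-positive arrays, against 11.32, 11.09 and 10.93 on the GFP-negative arrays. Cycs, the mobile carrier cytochrome c, changed by 0.16 (adjusted p = 0.294).

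Complex IV held the largest changes in both directions among the subunits of the 5 complexes, and all of them were in genes for alternative paralogs. Of its 18 genes, 1 rose (5.56%, against 8.15% of all genes), 1 fell (5.56%, against 9.92%) and 16 were not called. The median change was 0.10. Cox6a2, the heart and skeletal muscle form of subunit VIa, had 7.36, 6.88 and 7.06 on the GFP-positive arrays, against 8.39, 8.23 and 8.25 on the GFP-negative arrays. Every GFP-negative array was higher than every GFP-positive one. Cox6a2 fell by 1.19 ± 0.14 on the log2 scale (2.28-fold, adjusted p = 0.00412), its second probe set fell by 0.90 (adjusted p = 0.0268), and the call stood with each array left out in turn, at adjusted p between 0.00520 and 0.0204. Cox6a1, the form found in most tissues, changed by 0.04 ± 0.13 (adjusted p = 0.861), and Cox7a2, the widespread form of subunit VIIa, by 0.10 (0.436). A second bright probe set of Cox6a1 gave 0.25 (adjusted p = 0.103), with every GFP-positive array above every GFP-negative one.

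Cox6b2, known as the testis form of subunit VIb, moved the other way. It had 13.02, 12.95 and 12.94 on the GFP-positive arrays, against 12.37, 12.34 and 12.30 on the GFP-negative arrays. Arrays within a group differed by less than 0.1, and the groups were separate. Its log2 change was 0.64 ± 0.08 (1.55-fold, adjusted p = 0.00560) on its only probe set, and the call stood with each array left out in turn (0.0175 to 0.0297) but not without both arrays with immunoglobulin signal (0.0681). Cox6b1, the widespread form, had 13.68, 13.63 and 13.66 on the GFP-positive arrays, against 13.51, 13.53 and 13.53 on the GFP-negative arrays, a change of 0.13 (adjusted p = 0.307). Kmt5c, the neighbouring gene of Cox6b2, changed by 0.18 (adjusted p = 0.214).

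Cox4i2, the oxygen-responsive form of subunit IV known from lung, had 5.87, 5.26 and 5.94 on the GFP-positive arrays, against 6.40, 6.34 and 6.53 on the GFP-negative arrays. The groups were separate, and the change of -0.73 ± 0.19 had an adjusted p of 0.0532. Cox4i1, its widespread partner, changed by 0.03 (adjusted p = 0.827). Ndufa4, once assigned to complex I and counted here with complex IV, changed by -0.04 (0.753), and its hypoxia-inducible relative Ndufa4l2 by 0.35 ± 0.10 (0.0759), with separate groups. The muscle forms Cox7a1 and Cox8b changed by 0.09 (adjusted p = 0.866) and 0.41 (0.208), and the testis forms Cox8c and Cox7b2 by 0.30 (0.167) and 0.01 (0.972). Several of these paralogs were dim: Cox4i2, Cox8b, Cox8c, Ndufa4l2, Cox7a1 and Cox7b2 had mean log2 intensities between 3.02 and 6.06, and no detection calls were used, so whether they lay above background is not known. Cox7c, a small subunit, was represented by a probe set with values of 7.60, 7.71 and 7.55 on the GFP-positive arrays, against 7.29, 7.29 and 8.29 on the GFP-negative arrays, where array 3 stood alone.

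To set paralogs against each other, the difference of each pair was taken on each array and compared between groups for 10 pairs. Only the representative probe set of each gene was used. The change of Cox6a2 differed from that of Cox6a1 by -1.23 ± 0.27 (SE), that of Cox4i2 from Cox4i1 by -0.77 ± 0.23, and that of Cox6b2 from Cox6b1 by 0.50 ± 0.03. Ndufa4l2 differed from Ndufa4 by 0.39 ± 0.07. In each of these 4 pairs, and in Atp5g1 against Atp5g2, the groups did not overlap and the 2-sided exact permutation p was 0.1, which is the smallest that 3 arrays against 3 allow. After Benjamini-Hochberg adjustment over the 10 pairs these p-values were 0.2. Cox8b against Cox8a (0.20 ± 0.33, exact p = 0.8), Cox8c against Cox8a (0.09 ± 0.11, exact p = 0.5) and Cox7a1 against Cox7a2 (-0.01 ± 0.39, exact p = 1) overlapped. The design could not bring any pair under 0.05 by this test.

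**Figure D2:**
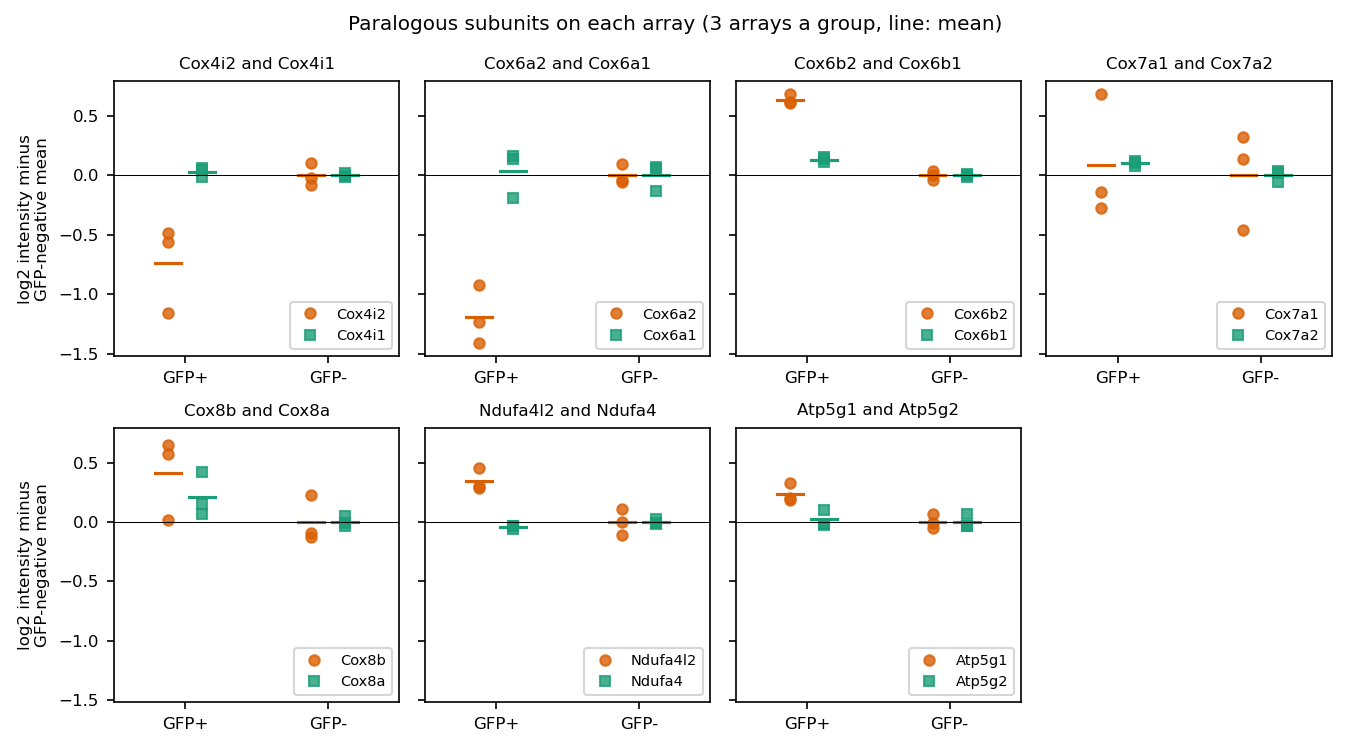
Log2 intensity of paralogous subunits on each array, on the representative probe set, as the difference from the gene's own GFP-negative mean, with GFP-positive arrays left of GFP-negative arrays (3 each) and a line at each group mean. Cox4i2 and Cox6a2 lie below 0 on all GFP-positive arrays while Cox4i1 and Cox6a1 scatter around 0, and Cox6b2 lies above Cox6b1 there.

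ATP synthase had changes from 0.02 to 0.27 over 17 genes, the same rounded range as the 4 genes of complex II, and none passed the threshold. The lowest adjusted p was 0.112. Of the 17 genes, 2 had an unadjusted p under 0.05 with a positive change, as did 22.0% of all genes. The median change was 0.11, against 0.11 for all genes and 0.04 for the 2189 brightest genes, among which every ATP synthase gene lay. Groups were separate with GFP-positive higher in 9 of the 17 (52.9%, against 28.9% of all genes and 32.4% of the brightest ones). Atp5b, the catalytic beta subunit, had 13.24, 13.28 and 13.22 on the GFP-positive arrays, against 13.13, 13.11 and 13.09 on the GFP-negative arrays, with no overlap and a change of 0.14 ± 0.08 (adjusted p = 0.297). Atp5a1, the alpha subunit that alternates with it, had 13.51, 13.46 and 13.45 on the GFP-positive arrays, against 13.49, 13.45 and 13.41 on the GFP-negative arrays. Its change was 0.02 (adjusted p = 0.894) and the groups overlapped.

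The gamma subunit gene Atp5c1, part of the rotor shaft, changed by 0.11 (adjusted p = 0.462), Atp5d by 0.09 (0.535) and Atp5e by 0.05 (0.698). The overlap of the groups held for all 3. Subunit c, which forms the membrane ring of the rotor, is encoded by Atp5g1, Atp5g2 and Atp5g3. Atp5g1 had 13.56, 13.44 and 13.41 on the GFP-positive arrays, against 13.30, 13.22 and 13.18 on the GFP-negative arrays, a change of 0.24 ± 0.09 (adjusted p = 0.137). Atp5g2 changed by 0.02 (0.892) and Atp5g3 by 0.10 (0.436). The difference of changes between Atp5g1 and Atp5g2 was 0.22 ± 0.01, while Atp5g1 against Atp5g3 (0.13 ± 0.08, exact p = 0.3) and Atp5g3 against Atp5g2 (0.08 ± 0.08, exact p = 0.4) had overlapping groups. Atp5h, a subunit of the peripheral stalk, changed by 0.09 (adjusted p = 0.531).

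Assembly and accessory factors had a median change of 0.30, and 2 of 13 rose (15.4%, against 8.15% of all genes). Brightness differed between the classes: mean log2 intensities ran from 9.11 to 12.50 in this class and from 12.12 to 13.61 in ATP synthase. Over the 84 genes with a mean above 9, dimmer genes had the larger changes (Pearson r = -0.56 across genes that share the same arrays), so the order of the class medians cannot be told apart from brightness. Ndufaf1, needed for assembly of the membrane arm of complex I, had 10.59, 10.94 and 10.68 on the GFP-positive arrays, against 10.03, 10.25 and 9.93 on the GFP-negative arrays. Its groups were separate, with a log2 change of 0.67 ± 0.14 (1.59-fold, adjusted p = 0.0252) on 1 probe set. The call held without GFP-negative array 2 (0.0400) or GFP-positive array 1 (0.0378) and was lost without any 1 of the other 4 (0.0633 to 0.0885). Sdhaf3, which helps to mature the iron-sulfur subunit of complex II, had 9.57, 9.52 and 9.24 on the GFP-positive arrays, against 8.92, 8.93 and 8.59 on the GFP-negative arrays. Array 3 was the lowest of its group in both. The log2 change was 0.63 ± 0.14 (1.55-fold, adjusted p = 0.0362). The call held without GFP-positive array 3 (0.0409) and was lost without any 1 of the other 5 arrays (0.0622 to 0.107). A dimmer probe set of the gene, with a mean log2 intensity of 4.28, had a change of -0.40 (adjusted p = 0.195). Whether that probe set lay above background is not known. The mean of both probe sets gave 0.11 (0.551).

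The other 7 complex I assembly factors did not pass the threshold. Each had a change above 0, with a median of 0.33 and groups separate with GFP-positive higher in 4 (against 28.9% of all genes). Ndufaf6 changed by 0.47 ± 0.14 (adjusted p = 0.0687), Ndufaf7, a methyltransferase that modifies a core subunit, by 0.35 ± 0.10 (0.0719), and Ndufaf3 by 0.49 ± 0.20 (0.150); these were named after their values were seen. With the replicate number as a block, Ndufaf3 (0.0492) and Ndufaf6 (0.0463) passed the threshold. The 4 complex II factors had a median of 0.20; Sdhaf2, which attaches flavin to Sdha, changed by 0.24 (adjusted p = 0.183), and by 0.59 on a second probe set (0.0311). Cox7a2l, a factor in assembling supercomplexes of the chain, had 12.49, 12.39 and 12.47 on the GFP-positive arrays, against 12.56, 12.57 and 12.52 on the GFP-negative arrays. Those groups were separate in the opposite direction, by a change of -0.10 (adjusted p = 0.447).

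Arrays of the same group differed in the level of the whole set. The median deviation of the 94 genes from their GFP-negative means was 0.22, 0.14 and 0.13 on GFP-positive arrays 1, 2 and 3, against 0.06, -0.01 and -0.04 on GFP-negative arrays 1, 2 and 3. For all genes it was 0.09, 0.10 and 0.10 on the GFP-positive arrays, against 0.04, -0.01 and -0.02 on the GFP-negative arrays. Array 1 was the highest of its group for 67 of the 94 genes (71.3%) among GFP-positive arrays and likewise for 67 among GFP-negative arrays, against 38.1% and 48.0% of all genes. GFP-positive array 1 is also an array with immunoglobulin signal. The other such array, GFP-negative array 3, was the lowest of its group for 63 of the 94 genes (67.0%, a share not counted over all genes). Both positions widen the difference between the groups, while that of GFP-negative array 1, the highest of its group for most of these genes, narrows it. The part of the immunoglobulin signal in this was not tested. Complex III ran from 0.20 on GFP-positive array 3 to 0.36 on array 1, and complex IV from 0.08 to 0.13 over the GFP-positive arrays.

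**Figure D3:**
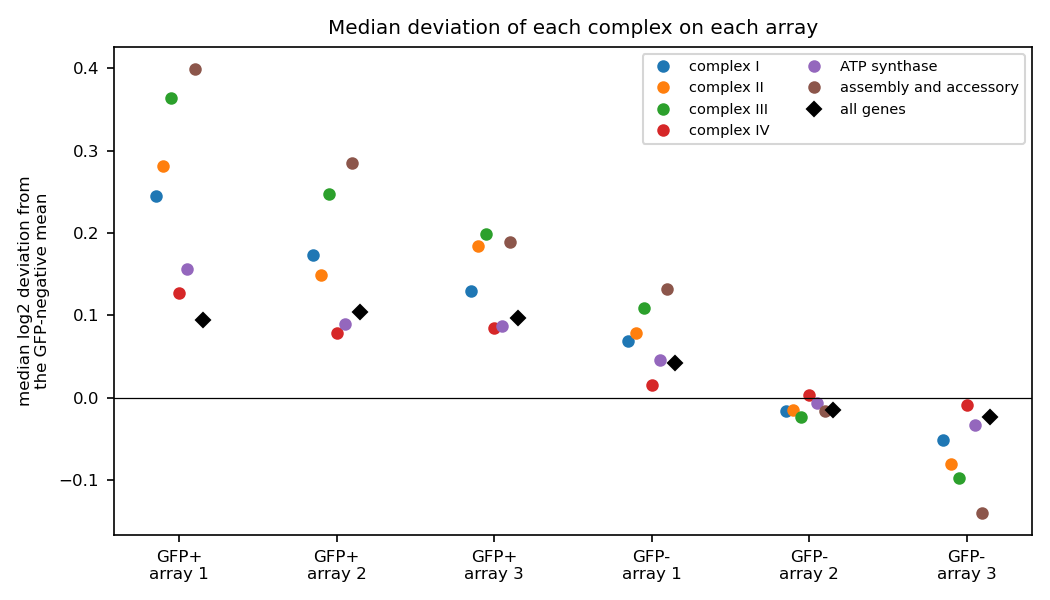
Median log2 deviation from the GFP-negative mean of each complex (coloured points) and of all genes (black diamonds) on each of the 6 arrays, GFP-positive arrays at left. Medians of the complexes lie above 0 on every GFP-positive array, and for each complex array 1 is the highest of its group in both groups.

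Probe sets of the same gene offered a check on the size of the changes. Of the 42 genes with several probe sets above a mean log2 intensity of 9, the gap between the highest and lowest change was under 0.1 in 33, with a median of 0.06 and a maximum of 0.37 in Uqcr10. In 28 of the 42, the dimmest of these probe sets gave the higher change, with a median of 0.19 for the dimmest and 0.14 for the brightest. Bright probe sets of 6 genes were called differently. Uqcr10, a small complex III subunit, changed by 0.27 on its representative probe set (adjusted p = 0.162), and rose by 0.64 (0.0318) and 0.79 (0.0214) on dimmer ones. Ndufa12, a complex I subunit, changed by 0.14 on the representative probe set (0.484) and rose by 1.504 on a dim one (0.0482). For both genes the brightest probe set gave the smallest change.

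**Figure D4:**
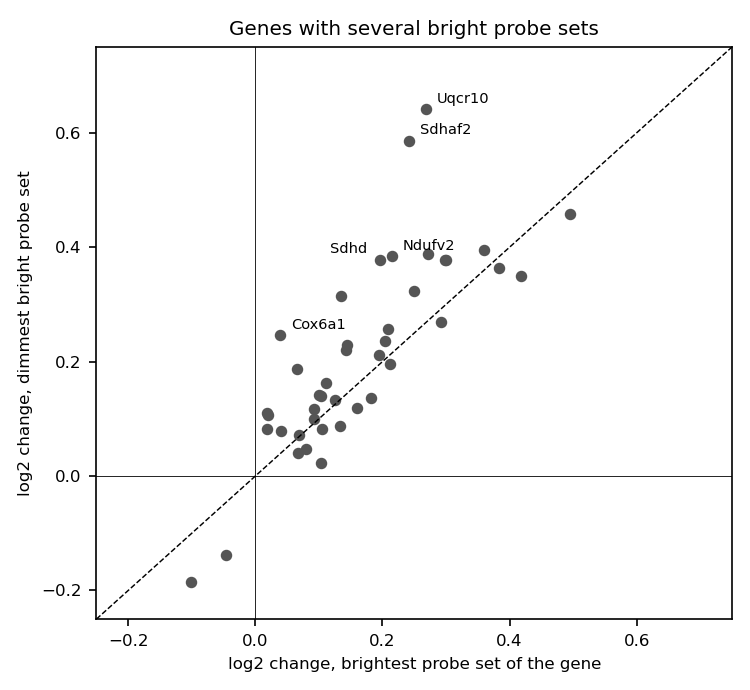
Log2 change (GFP-positive minus GFP-negative) on the dimmest against the brightest of each gene's probe sets above a mean log2 intensity of 9, for 42 genes; the dashed line marks equal change. Genes with the widest gap between probe sets are named, and Uqcr10 and Sdhaf2 lie furthest above the line.

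Other genes of the pathway were taken from lists put together apart from the symbol rule. Of 20 assembly factors for complex IV, 3 rose (against 8.15% of all genes) and none fell (against 9.92%), with a median change of 0.26. The 3 that rose were Cox11, which delivers copper to the complex, by 0.67 (adjusted p = 0.0424), Cmc2 by 0.53 (0.0285) and Cox17, a copper chaperone, by 0.44 (0.0447). With 1 array left out, the calls of Cox11 and Cmc2 held in 2 of 6 fits and that of Cox17 in 0 of 6. None of 17 assembly factors for complexes I, III and V outside the rule passed the limma threshold, and their median was 0.14. At an unadjusted p under 0.05, 6 were higher and 1 lower, against 22.0% and 15.1% of all genes. Of 10 genes of ubiquinone synthesis and binding, 2 rose (20.0%, against 8.15% of all genes) and none fell (against 9.92%). Coq3, a methyltransferase, had 9.99, 10.05 and 9.78 on the GFP-positive arrays, against 9.47, 9.14 and 8.75 on the GFP-negative arrays (0.82, adjusted p = 0.0390), and Coq7, a hydroxylase, rose by 0.56 (0.0276). Both of these calls held only without GFP-negative array 1 (0.0232 for Coq3 and 0.0320 for Coq7) and reached at most 0.113 and 0.0849 without another array. The 1 mitochondrially encoded subunit measured, ND5, had 12.77, 12.88 and 12.89 on the GFP-positive arrays, against 12.62, 12.96 and 12.83 on the GFP-negative arrays, with overlapping groups and a change of 0.04 (adjusted p = 0.825).

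Of 20 regulators of mitochondrial gene expression, 2 rose (10%, against 8.15% of all genes) and 1 fell (5%, against 9.92%), shares near or below those of all genes. Polg, the mitochondrial DNA polymerase, rose by 0.49 (adjusted p = 0.0220) and Tfam, which packages and transcribes mitochondrial DNA, by 0.40 (0.0300). Gabpb1, a subunit of the GABP factor, fell by 0.51 (0.0131), with 11.57, 11.46 and 11.45 on the GFP-positive arrays, against 11.98, 12.01 and 12.02 on the GFP-negative arrays, while Gabpa, its DNA-binding partner, changed by 0.07 (0.713). Of 11 genes for uncoupling and alternative electron entry, 1 rose (9.09%, against 8.15% of all genes) and none fell (against 9.92%). It was Etfdh, which feeds electrons from fatty acid oxidation to ubiquinone, by 0.38 (0.0478). Of 14 hypoxia and glycolysis genes, none rose (against 8.15% of all genes) and 5 fell (35.7%, against 9.92%). Among them were Egln3, an oxygen-sensing prolyl hydroxylase that fell by 2.58 (0.00154), Ldhb, a lactate dehydrogenase subunit that fell by 1.61 (0.00653), and Slc2a1, a glucose transporter that fell by 1.40 (0.00395). These 3 calls stood with each array left out in turn, at adjusted p of at most 0.0294, but without both arrays with immunoglobulin signal that of Slc2a1 was lost (0.0612; Egln3 0.0324, Ldhb 0.0357). By contrast, the calls of Polg, Tfam, Gabpb1 and Etfdh held in 2, 0, 3 and 0 of the 6 fits (at most 0.0794, 0.0979, 0.0556 and 0.149). The median of the hypoxia and glycolysis list was -0.24, against 0.16 for the respiratory chain and ATP synthase genes and 0.11 for all genes.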

How the data were processed

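Probe set intensities were made by the authors with RMA, per the submitters' processing notes, and deposited on a linear scale. For its version, settings and antilog step: not given in the sources used here. Deposited intensities were taken to log2 without further normalization. Of 45101 probe sets, 64 controls were left out. GEO's platform annotation gave 1 gene for 34945, several for 932 and none for 9160; all 94 genes matched RefSeq by gene ID with the same symbol. Groups follow the labels.

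limma 3.58.1 (R 4.3.3) fitted the difference between the groups by lmFit with eBayes (2-sided, no covariate; prior 2.38 and total 6.38 degrees of freedom), with Benjamini-Hochberg adjustment over 45037 probe sets and a threshold of 0.05. The fit was tested on simulated data. Paralog pairs were compared by exact permutation over arrays. The members and lists were chosen with earlier results of these data known; after the files were read, 4 symbols were added to the grouping by complex and a few list symbols dropped. The labels number replicates without pairing them, so arrays were not paired. Deviations of same-numbered arrays correlated at 0.023, 0.055 and 0.019 over all probe sets. Over the 94 genes they correlated at 0.50, 0.51 and 0.19, against -0.55 to 0.27 for arrays of unlike number. Whether equal numbers share a source of variation in these genes was not tested, and the fit without a block leaves it out.

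Named genes were those past the threshold, up to 3 of each class or the 2 brightest, the catalytic cores and the paralogs, and up to 3 called genes of each other list; genes outside this rule are stated as such or given beside a count. Alternatives were the replicate block, trend and robust priors, repeated quantile normalization, array medians subtracted, the brighter probe sets, array weights, other probe sets for a gene and dropping 1 array at a time; a fit without either array that carried immunoglobulin signal was chosen after seeing the data. Python 3.11.15 was used with pandas 2.3.3, numpy 2.4.6, scipy 1.17.1 and matplotlib 3.10.9.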

Additional observations from a re-analysis of the deposited data

How the results depend on the processing

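Of the 6 calls, Cox6a2 and Cox6b2 stood with each array left out in turn, and the other 4 were lost without at least 1 array. Leaving out 1 array gave 1 to 4 genes called as higher (4 when GFP-negative array 1 was dropped; 2 for GFP-negative array 2 or for array 1 or 3 of the GFP-positive group; 1 for GFP-negative array 3 or GFP-positive array 2) and 1 called as lower; complex I had 0 to 2, complex III 0 to 1 and the assembly and accessory genes 0 to 1. Over all features it gave 1212 to 2243 probe sets higher and 2192 to 3098 lower, and 614 to 1134 genes higher and 1215 to 1604 lower. Without both arrays with immunoglobulin signal, a setting chosen after seeing the data, 0 genes of the set were called as higher (complex I, complex IV and assembly 0 each), and 681 probe sets were higher and 1652 lower, 379 genes higher and 929 lower. With the replicate number as a block, complex I had 1 gene higher and the assembly and accessory genes 4; Ndufs1 was lost and Ndufaf3 and Ndufaf6 gained. With trend and robust priors 23 genes were higher (complex I 9, III 5, IV 2, ATP synthase 5), and with repeated quantile normalization complex IV had 2. With array medians subtracted, 5218 probe sets and 2657 genes were higher, and 18 genes of the set (complex I 8, III 3, IV 2, ATP synthase 1, assembly 4), with a median change of 0.24; of all gene calls 60.8% were then higher, against 50.1% with quantile normalization and 45.1% in the report. The brighter probe sets, which held 89 of the 94 genes, gave 12 higher and 2 lower (complex I 5, III 1, IV 2, assembly 4), and array weights 8 higher and 2 lower (complex III 1). Taking the probe set of highest variance gave 10 higher (complex I 4, II 1, III 1) and turned Ndufb9 to -0.0298; probe sets with a plain _at identifier gave 9 (complex I 4, II 1, III 1); the mean of all probe sets gave 15 higher and 2 lower (complex I 4, II 2, III 3, IV 2, assembly 4) and 2372 genes higher, while 2 of the 6 calls were lost (Ndufb9 at 0.31, Sdhaf3 at 0.11). Over the settings, 80 to 91 genes of the set had a change above 0. The share of the set called as higher exceeded that of all genes with trend and robust priors (24.5% against 9.38%). The same held with array medians subtracted (19.1% against 14.6%) and the mean of all probe sets (16.0% against 13.0%). It held for the highest-variance probe set (10.6% against 8.57%), plain _at identifiers (9.57% against 7.85%) and the replicate block (6.38% against 5.61%). The cause of these differences was not tested. Complex II and ATP synthase had no call under any 1 array left out.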
